A study of Mus musculus with 30 samples.

Results

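Described here are 1828 autosomal regions of open chromatin that the deposited ATAC-seq peak lists place in type A spermatogonia and in pachytene spermatocytes, but not in primitive type A spermatogonia. They were chosen by listing alone. The 4 lists were joined into 113894 union regions on chromosomes 1 to 19 wherever peaks overlapped by at least 1 bp. A union region was kept when it overlapped a peak of SG-A and a peak of pacSC and no peak of PriSG-A, whether or not it overlapped a peak of rST. The 1828 regions made up 1.61% of all union regions (95% Wilson interval 1.53 to 1.68), and 100 of them were also listed in rST.

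The study profiled germ cells from testes of C57BL/6 mice. Primitive type A spermatogonia (PriSG-A) were taken at day 6 after birth and type A spermatogonia (SG-A) at day 8, and pachytene spermatocytes (pacSC) and round spermatids (rST) came from adults. There were 3 ATAC-seq libraries for PriSG-A, 3 for SG-A, 2 for pacSC and 2 for rST, and each stage is represented by 1 peak list for all its libraries. No transgene, agent or mutation is named for any group, no purity of the isolated cells was used here, and cell identity could not be checked against marker genes because no gene was assigned to a peak.

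ATAC-seq uses the transposase Tn5, which inserts sequencing adapters where DNA is free of packed nucleosomes, so peaks mark accessible promoters, enhancers and other open stretches. Type A spermatogonia are the mitotic germ cells that maintain the line and begin differentiation. Pachytene spermatocytes are in meiotic prophase, with homologous chromosomes paired and recombining, and round spermatids are their haploid products. Numbering of a mouse autosome starts beside its centromere, and distal means towards the last base.

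On autosomes the PriSG-A list held 54413 peaks, the SG-A list 85773, the pacSC list 32902 and the rST list 6233. The depth of sequencing is not known and replicates are not separable, so no p-value between stages was computed, the intervals given cover counting error only, and being unlisted does not show that a region was closed. Positions are those of the files. The labels name mm10, but listed peaks ran past the last gene of the GRCm38 RefSeq table, the assembly that mm10 denotes, on 10 of 19 autosomes, by up to 7.20 Mb on chromosome 7. The positions were therefore not matched to genes or sequence.

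Few regions joined the 2 lists without PriSG-A. Of 52997 SG-A regions without a PriSG-A peak, 1828 were listed in pacSC, or 3.45% (3.30 to 3.61). Of 16463 pacSC regions without a PriSG-A peak, the same 1828 were listed in SG-A, or 11.1% (10.6 to 11.6). Both shares follow from the rule and are given as a description. The mirror set, listed in PriSG-A and pacSC and not in SG-A, held 568 regions, or 3.72% (3.43 to 4.04) of 15256 PriSG-A regions without an SG-A peak.

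In each list these regions had a median strength near that of the whole list, and few strong peaks. The deposited −log10 q, the significance that the authors' peak caller gave each peak, had a median of 2.56 in pacSC (quartiles 2.11 and 3.30) and 2.62 in SG-A (2.21 and 3.37). Over all pacSC-listed regions the median was 2.59 in pacSC, and over all SG-A-listed regions it was 2.73 in SG-A. A −log10 q of at least 5 was reached in pacSC by 89 of the 1828 regions, or 4.87% (3.97 to 5.95), against 12.1% of all pacSC-listed regions. In SG-A it was reached by 78, or 4.27% (3.43 to 5.29), against 18.6% of all SG-A-listed regions. The rule used both lists, so nothing is read from these shares. The 11977 regions of PriSG-A, SG-A and pacSC together reached the threshold in 25.9% of cases in pacSC and 83.2% in SG-A.

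In SG-A their strength lay between that of other sets, and in pacSC it was near that of the mirror set. Their median −log10 q of 2.56 in pacSC compares with 2.23 for the 14635 pacSC regions in neither spermatogonial list and with 2.56 for the mirror set. Their median of 2.62 in SG-A compares with 2.39 for the 51169 SG-A regions in neither PriSG-A nor pacSC, and with 3.64 for the 18666 regions of PriSG-A and SG-A without pacSC. Median peak width differed in the same direction from the weaker sets. It was 164 bp in pacSC, against 112 bp for pacSC regions in neither spermatogonial list, and 160 bp in SG-A, against 104 bp for SG-A regions in neither other list. It was 156 bp in pacSC for the mirror set and 417 bp in SG-A for regions of PriSG-A and SG-A without pacSC. A wide peak has more chance to overlap another, and these widths were not matched.

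Strength in one stage went with little difference in the other. Of the 1828, 87 reached a −log10 q of 5 in pacSC only, 76 in SG-A only and 2 in both, which left 1663 below it in both lists. Among regions past 5 in pacSC, 2.25% (0.618 to 7.83) were past it in SG-A, against 4.37% (3.51 to 5.44) of those below 5 in pacSC, with overlapping intervals. For regions of all 3 lists these shares were 94.9% (94.1 to 95.6) and 79.1% (78.2 to 79.9). Spearman's rho between the pacSC and SG-A values was 0.059 over the 1828 regions, and Pearson's r was 0.042. For the 11977 regions of all 3 lists rho was 0.498. Among regions below 5 in both lists rho was 0.068 for the 1663 and −0.015 for 1855 regions of all 3 lists, so the near absence of a relation was also found among weak regions of all 3 lists. Each list pools its libraries, and regions are not replicates.

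**Figure D1:**
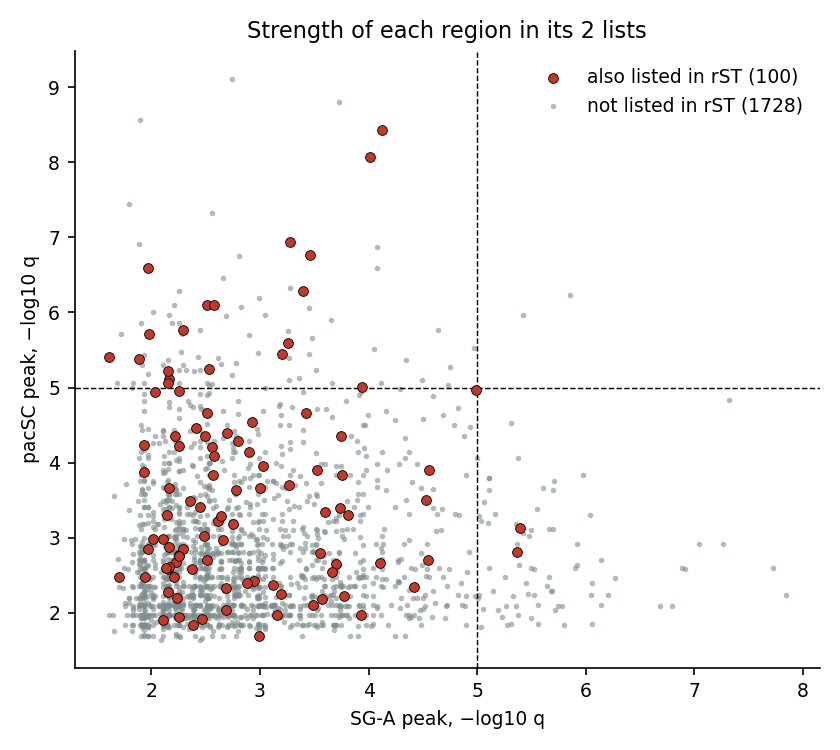
Each point is 1 of the 1828 regions, placed by the −log10 q of its SG-A peak (x axis) and its pacSC peak (y axis), with the 100 regions also listed in rST in red and the other 1728 in grey, and dashed lines at 5. Only 2 regions lie beyond both lines, and the red points are spread along the pacSC axis.

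The 2 regions past 5 in both lists lay near distal ends. One was on chromosome 9 at 121578382 to 121579438, with a −log10 q of 6.24 in pacSC and 5.86 in SG-A, and signal values of 1741 and 1048 in that order. The signal value is the authors' measure of a whole peak, which grows with its width as well as its height. The other was on chromosome 15 at 101833130 to 101834753, with a −log10 q of 5.97 in pacSC and 5.42 in SG-A, and signal values of 2360 and 1116. They lay 2.47 and 1.66 Mb from the distal end, and 26113 and 24960 bp from the nearest PriSG-A peak. Neither was listed in rST.

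The 10 regions of highest pacSC signal value were chosen on that value, so their wide pacSC peaks follow from the choice. The highest pacSC signal value, 4452, was on chromosome 6 at 145563951 to 145565188, over a pacSC peak of 1238 bp, against 21.5 over an SG-A peak of 92 bp. On chromosome 2, the region at 180869058 to 180870763 had 4207 in pacSC and 167 in SG-A, and the region at 181196983 to 181199425 had 4027 in pacSC and 194 in SG-A. On chromosome 11, the region at 120978662 to 120980211 had 3458 in pacSC and 333 in SG-A. All 4 lay within 5 Mb of the distal end, at 3.95, 0.88, 0.55 and 0.86 Mb, and none was listed in rST.

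The next 6 by pacSC signal value ran from 2907 to 2360. On chromosome 13, the region at 5856409 to 5857908 had 2907 in pacSC and 208 in SG-A, and on chromosome 14 the one at 122632227 to 122634211 had 2861 and 48.2. On chromosome 3, the region at 152148696 to 152149729 had 2662 in pacSC and 275 in SG-A, and on chromosome 4 the one at 15998531 to 16000397 had 2440 and 36.3. Chromosome 15 held the last pair, with 2425 in pacSC and 86.0 in SG-A at 102845201 to 102846326, and 2360 and 1116 at 101833130, described above. Those on chromosomes 3 and 4 were the 2 of the 10 listed in rST. Over all 10, pacSC peaks were 1034 to 2443 bp wide, against 62 to 660 bp in SG-A, and 8 lay in the distal 10 Mb. Ranked by SG-A signal value among the 1828, these 10 held places 45 to 1785.

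The 10 regions of highest SG-A signal value were chosen in the same way and shared none with the 10 of pacSC. The highest SG-A signal value was 2537, on chromosome 8 at 128433596 to 128435448, where the pacSC value was 211 and the 2 summits stood 1187 bp apart. On chromosome 13, the region at 113824515 to 113825732 had 1211 in pacSC and 2294 in SG-A, with summits 62 bp apart. On chromosome 11, the region at 96902396 to 96903264 had 83.2 in pacSC and 2033 in SG-A, with summits 10 bp apart, and the region at 60023559 to 60024543 had 164 in pacSC and 2015 in SG-A. On chromosome 3, the region at 94937432 to 94938073 had 116 in pacSC, for the stronger of 2 peaks, and 1935 in SG-A.

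The remaining 5 of the 10 ran from 1908 to 1735 in SG-A. On chromosome 2, the region at 152776916 to 152777855 had 192 in pacSC and 1908 in SG-A, and on chromosome 5 the one at 120566327 to 120567055 had 30.5 and 1881. On chromosome 14, the region at 30791337 to 30792291 had 335 in pacSC and 1807 in SG-A. On chromosome 15, the region at 76059320 to 76060362 had 105 in pacSC and 1759 in SG-A, and on chromosome 17 the one at 56890718 to 56891686 had 55.7 and 1735. In these 10 regions pacSC peaks were 100 to 1067 bp wide, against 642 to 1853 bp in SG-A. Only those on chromosomes 8 and 13 were in the distal 10 Mb, and none was listed in rST. Their places by pacSC signal value ran from 64 to 1589. Each of the 10 lay between 493 and 38830 bp from a PriSG-A peak.

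Overlap of the 2 stages was set by the rule, but not its extent. In 1662 of 1828 regions, or 90.9% (89.5 to 92.2), there was 1 peak of each list. In 735 of 1827 regions with direct overlap, or 40.2% (38.0 to 42.5), the overlap covered at least 50% of both peaks, against 40.8% (39.9 to 41.7) for regions of all 3 lists. The median overlap was 97 bp, or 41.8% of the wider peak. The pacSC peak was the wider in 978 and the SG-A peak in 836, with 14 ties. For regions of all 3 lists the SG-A peak was the wider in 90.8% (90.2 to 91.3). The narrower peak lay wholly inside the wider in 1070 of the 1827, or 58.6% (56.3 to 60.8). The summits, the highest points of the peaks, were a median of 48 bp apart (quartiles 16 and 128). In regions whose wider peak was 100 to 300 bp, the median was 35 bp over 823 of these regions and 33 bp over 580 regions of all 3 lists. At 300 to 1000 bp it was 83 bp over 794 regions and 69 bp over 2714. The median offsets were thus close in the narrower width class and larger for these regions in the wider class, with no intervals computed. Many regions of all 3 lists fell outside these classes, since their median SG-A peak was 1313 bp wide.

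The edges of the rule were narrow. In 1 region, also listed in rST, the single SG-A and pacSC peaks did not overlap directly. Among the other 1661 regions with 1 peak of each list, the shortest overlap was 1 bp, on chromosome 16 at 50783936 to 50784108, and 16 overlapped by under 10 bp. The shortest gap to a PriSG-A peak was 1 bp, on chromosome 1 at 24296096 to 24296457, and then 3 bp on chromosome 5 at 135834919 to 135835579 and 8 bp on chromosome 12 at 118573101 to 118573291. Just outside, a region on chromosome 18 at 69357764 to 69358447 was left out for a PriSG-A overlap of 5 bp, and regions on chromosome 7 at 53604151 to 53604631 and chromosome 12 at 32669575 to 32669929 for 6 bp each.

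Position was not used by the rule. The distal 10 Mb held 594 of the 1828 regions, or 32.5% (30.4 to 34.7), against 13.5% of all union regions. The density there was 3.13 regions per Mb, against 0.555 elsewhere, a ratio of 5.64 (95% Poisson interval 5.11 to 6.21). The ratio was 7.03 (6.80 to 7.27) for pacSC regions in neither spermatogonial list, 2.38 (1.91 to 2.97) for the mirror set, 1.94 (1.84 to 2.04) for regions of all 3 lists and 1.36 (1.32 to 1.40) for SG-A regions in neither other list. The first 10 Mb of the listed span, at the centromeric end, held 9.85% (8.56 to 11.3) of the regions, against 8.78% (8.61 to 8.94) of all union regions. That pacSC peaks gather distally was known from earlier results on these lists, so the distal share is no independent support for it.

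The density was highest 1 to 2 Mb from the distal end, at 5.11 regions per Mb. It was 3.63 in the last 1 Mb, 4.12 at 2 to 5 Mb, 2.03 at 5 to 10 Mb, 0.979 at 10 to 20 Mb, 0.589 at 20 to 40 Mb and 0.498 beyond. Seen from SG-A, the share of regions without PriSG-A that were also in pacSC was 18.8% (15.7 to 22.4) at 1 to 2 Mb and 2.51% (2.34 to 2.68) beyond 40 Mb. Seen from pacSC the order was reversed, with 7.77% (6.41 to 9.39) of regions also in SG-A at 1 to 2 Mb and 11.8% (11.0 to 12.5) beyond 40 Mb. Between these distances it was no steady rise. The share was 10.4% (9.19 to 11.7) at 2 to 5 Mb, 13.1% (11.5 to 14.9) at 5 to 10 Mb and 12.4% (10.8 to 14.1) at 10 to 20 Mb. The density of all pacSC regions without PriSG-A moved with position in the same way, at 65.7 per Mb at 1 to 2 Mb and 4.23 per Mb beyond 40 Mb, while that of SG-A regions without PriSG-A was 27.1 and 19.9 per Mb. The part of pacSC peak density in the distal share was not tested.

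**Figure D2:**
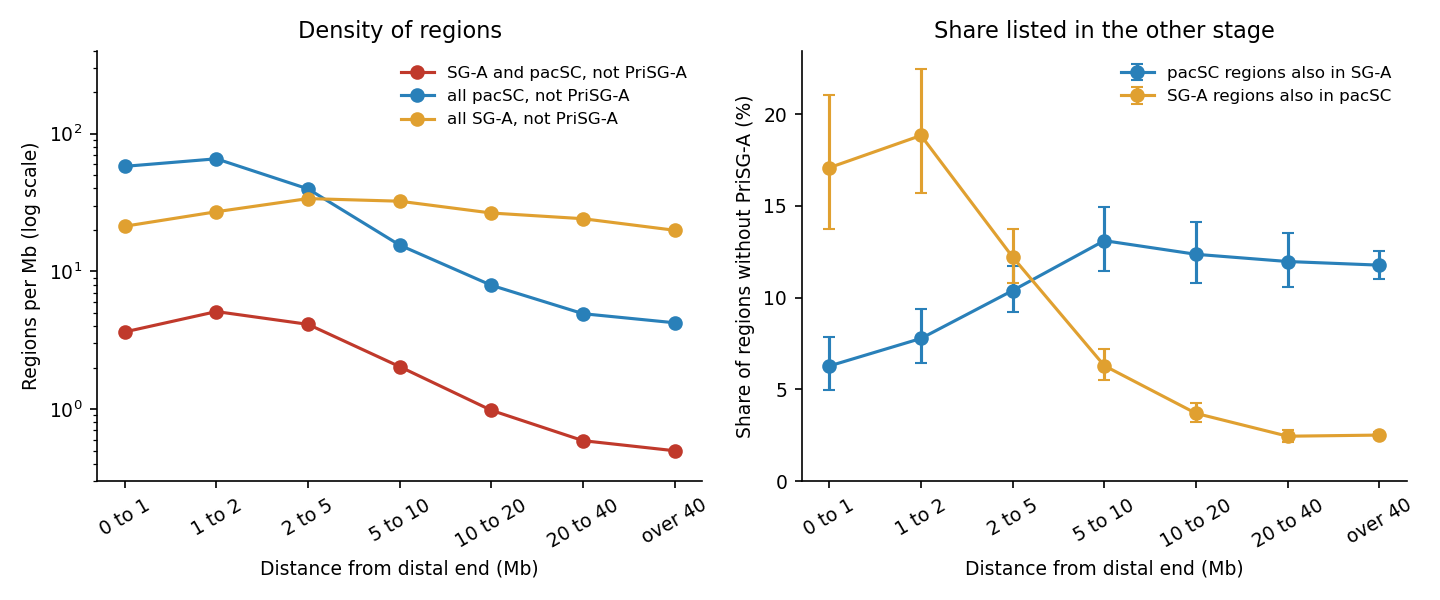
Left, regions per Mb (log scale) against distance from the distal end of the autosomes for the 1828 regions (red), for all pacSC regions without PriSG-A (blue) and for all SG-A regions without PriSG-A (orange). Right, the share of those pacSC regions also in SG-A (blue) and of those SG-A regions also in pacSC (orange), with 95% Wilson intervals: towards the distal end the SG-A share is 18.8% at 1 to 2 Mb and the pacSC share 7.77%.

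The higher share distally, seen from SG-A, held within each class of SG-A strength. In SG-A regions without PriSG-A and with a −log10 q under 2.5, 7.29% (6.45 to 8.22) were in pacSC in the distal 10 Mb and 1.98% (1.82 to 2.15) elsewhere. At 5 and over the shares were 30.5% (20.3 to 43.1) and 13.2% (10.4 to 16.7). The same order, not matched for strength, was found in regions with PriSG-A. For PriSG-A regions without SG-A, 9.74% (8.04 to 11.7) were in pacSC distally and 3.31% (3.03 to 3.61) elsewhere. For SG-A regions with PriSG-A the shares were 57.1% (55.3 to 58.8) and 37.2% (36.6 to 37.7). Seen from pacSC, the distal share was below that elsewhere for weak peaks, at 5.99% (5.30 to 6.76) against 9.71% (9.02 to 10.4) with a −log10 q under 2.5. For strong peaks it was 27.4% (21.5 to 34.1) against 20.8% (15.5 to 27.3), with overlapping intervals. Within classes of pacSC strength, the 1828 regions were more often distal than regions of all 3 lists in 5 of 5 classes, with the intervals apart in 5. They were more often distal than pacSC regions in neither spermatogonial list in 3 classes, with the intervals apart in 0, and less often in 2, with the intervals apart in 1. Of the 89 regions past 5 in pacSC, 58.4% (48.0 to 68.1) were in the distal zone, against 28.7% (27.2 to 30.2) of all pacSC-listed regions past 5. The share was 49.5% (43.6 to 55.3) for pacSC regions in neither spermatogonial list past 5, whose interval overlaps that of the 89. Of the 78 past 5 in SG-A, 23.1% (15.1 to 33.6) were distal, against 10.1% (9.63 to 10.6) of all SG-A-listed regions past 5.

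Chromosomes differed in how distal these regions were. The distal share exceeded that of SG-A regions in neither other list on 19 of 19 autosomes, and that of regions of all 3 lists on 19 of 19. Against pacSC regions in neither spermatogonial list it was higher on 9 and lower on 10. On chromosome 19 the share was 56.3%, against 45.0% for pacSC regions in neither spermatogonial list, and on chromosome 15 it was 43.6% against 25.5%. On chromosome 17 it was 17.5% against 46.6%, and on chromosome 18 it was 17.3% against 39.9%. These 4 shares rest on 36, 58, 14 and 13 distal regions in that order, and no intervals were computed for them. The zone of 10 Mb is a larger part of chromosome 19, with a listed span of 58.2 Mb, than of chromosome 1, with 194 Mb. Density ran from 0.402 regions per Mb on chromosome 1, with 78 regions, to 1.33 per Mb on chromosome 15, with 133.

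**Figure D3:**
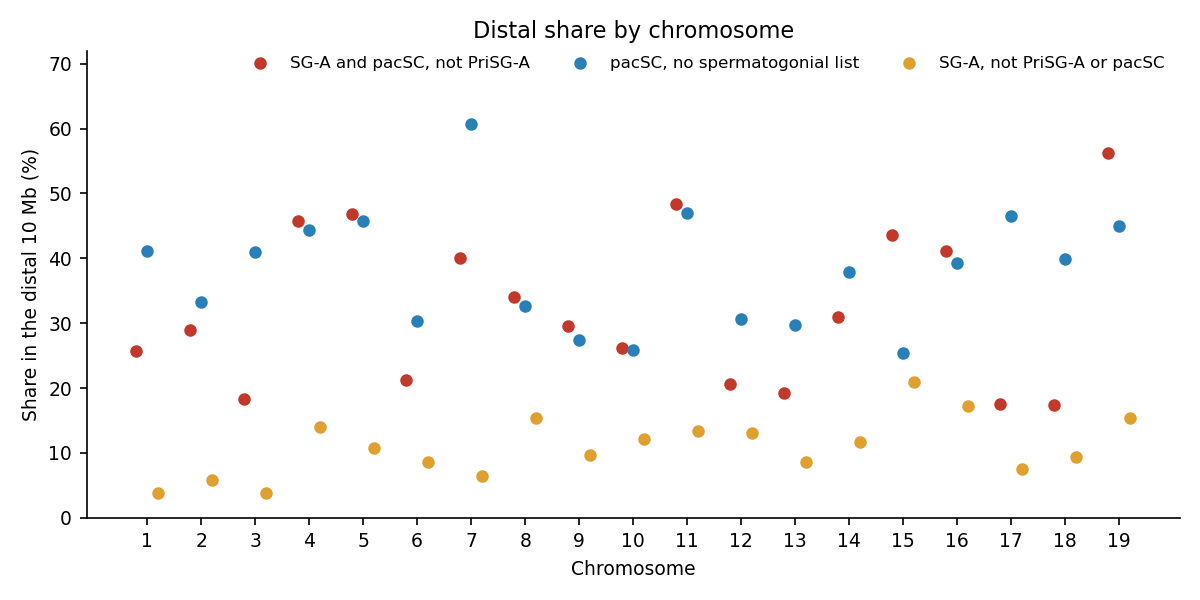
Share of regions in the distal 10 Mb (y axis) for each autosome (x axis): the 1828 regions (red), pacSC regions in neither spermatogonial list (blue) and SG-A regions in neither other list (orange). The red point is above the orange on 19 of 19 chromosomes and above the blue on 9.

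Most windows with any of these regions held 1. They occupied 989 of 2417 windows of 1 Mb that held any union region, 590 of them with 1 region each, and 9 windows held 10 or more. Those 9 held 118 of the 1828 regions, or 6.46% (5.42 to 7.68), against 3.34% (3.08 to 3.63) of all pacSC regions without PriSG-A and 1161 of the 113894 union regions (0.963% to 1.08%), but the windows were picked for holding many. The 5 fullest were chromosome 15 at 102000001 to 103000000 with 16 regions, chromosome 16 at 95000001 to 96000000 with 15, chromosome 2 at 180000001 to 181000000 with 14, chromosome 5 at 149000001 to 150000000 with 14, and chromosome 9 at 121000001 to 122000000 with 13. None of these 5 windows held a region listed in rST. In the window on chromosome 15, 50 pacSC and 74 SG-A regions lacked a PriSG-A peak, and in that on chromosome 16, 82 pacSC and 28 SG-A regions did. On chromosome 15 the 3 windows from 100000001 to 103000000 held 40 regions. The longest chain of regions less than 10 kb apart had 6 members, on chromosome 15 at 102993379 to 103008886. In all, 294 regions lay within 10 kb of another, in 142 such chains.

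Listing in rST is the one stage that the rule did not use. Of the 1828 regions 100 were listed there, or 5.47% (4.52 to 6.61), against 15.2% of all pacSC-listed regions. The share was 7.17% (6.76 to 7.60) for pacSC regions in neither spermatogonial list, 12.3% (9.87 to 15.3) for the mirror set and 26.6% (25.8 to 27.4) for regions of all 3 lists. Strength differs between these sets, so the shares were also compared within classes of pacSC −log10 q.

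Within classes of pacSC −log10 q the share in rST was lower for these regions than for each of the 3 other sets in 5 of 5 classes. The class of 5 and over has no upper bound. Its values reached 9.11 for these regions and 44.0 for regions of all 3 lists, so strength is not matched there. Width was not matched in any class. The median union region was 310.5 bp wide for these regions, against 1358 bp for regions of all 3 lists. With a −log10 q of 3 to 4 it was 6.06% (4.04 to 9.01), against 16.1% (14.5 to 17.9) for pacSC regions in neither spermatogonial list, 18.3% (12.3 to 26.3) for the mirror set and 16.3% (14.9 to 17.7) for regions of all 3 lists. At 4 to 5 it was 12.5% (7.95 to 19.1), against 26.4% (22.95 to 30.2), 31.0% (19.1 to 46.0) and 32.4% (30.4 to 34.4) in the same order. The intervals lay apart in 5 of 5 classes against regions of all 3 lists, and in 2 of 5 against each of the other sets. Under 2.5 the share was 2.48% (1.64 to 3.73), against 3.20% (2.87 to 3.56) for pacSC regions in neither spermatogonial list, with overlapping intervals. No test across libraries is possible for these differences.

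**Figure D4:**
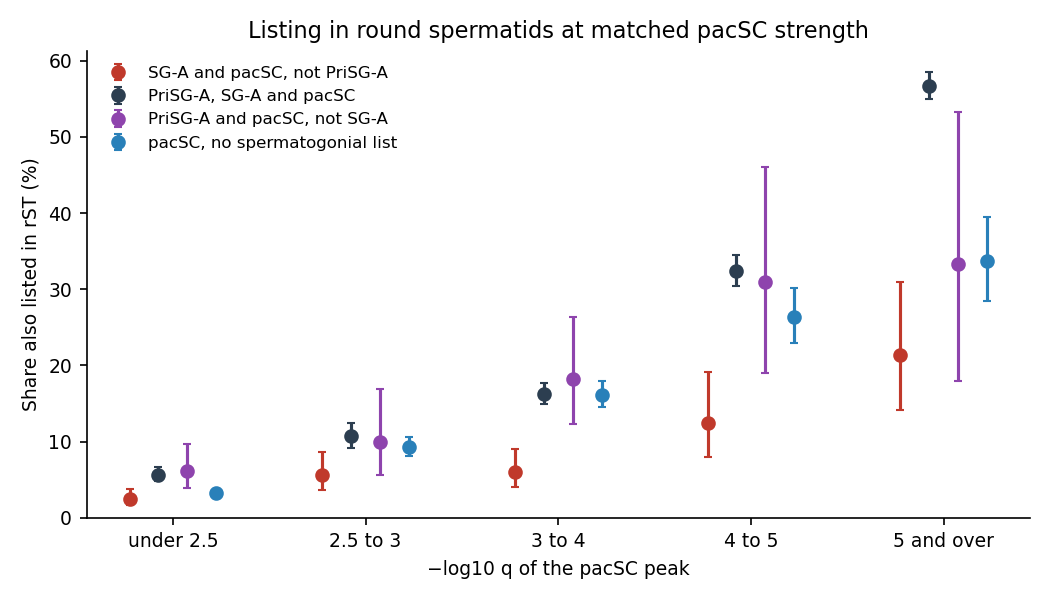
Share of regions also listed in rST (y axis, with 95% Wilson intervals) by −log10 q of the pacSC peak (x axis), for the 1828 regions (red), regions of PriSG-A, SG-A and pacSC (dark), regions of PriSG-A and pacSC without SG-A (purple) and pacSC regions in neither spermatogonial list (blue). The red point is the lowest in each of 5 classes, from 2.48% to 21.3%.

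Among these regions, distal ones were rarely listed in rST. Of the 594 in the distal 10 Mb, 9 were, or 1.52% (0.799 to 2.85), against 91 of 1234 elsewhere, or 7.37% (6.04 to 8.97). The same order was found for pacSC regions in neither spermatogonial list, at 1.18% (0.930 to 1.51) distally and 10.8% (10.1 to 11.4) elsewhere. Among the 594, 0 of the 69 in the last 1 Mb were listed in rST, which allows a share of up to 4.35% (3 counts of 69). Outside the distal zone the share in rST was again below that of pacSC regions in neither spermatogonial list in 5 of 5 classes of pacSC strength, with the intervals apart in 2. It was below the mirror set in 4 of 5, with the intervals apart in 0. At 3 to 4 it was 9.13% (6.05 to 13.6), against 22.6% (20.3 to 25.0) for pacSC regions in neither spermatogonial list.

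In most of the 100 regions listed in rST the pacSC peak was wider than the SG-A peak. The pacSC peak was the wider in 76 of them and the SG-A peak in 23. Of the 1728 regions not listed in rST, the pacSC peak was the wider in 52.2% (49.8 to 54.5). A −log10 q of 5 was reached in SG-A by 2 of the 100, in pacSC by 19 and in rST by 1. The 1728 reached it in 4.40% of cases in SG-A (3.53 to 5.47) and 4.05% in pacSC (3.22 to 5.09). In rST it was reached by 3.47% of all regions listed in both pacSC and rST. In the 100 regions the rST summit stood a median of 21.5 bp from the pacSC summit (quartiles 7.75 and 139) and 53.5 bp from the SG-A summit (19.8 and 190). These 100 were scattered, with at most 2 in any 1 Mb window. Their median gap to a PriSG-A peak was 20728 bp, against 13371 bp for the 1728 not listed in rST.

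Over the 100 regions the median signal value was 91.8 in SG-A, against 306 in pacSC and 71.7 in rST, though lists of unknown depth are not on a common scale. The 5 of highest rST signal value, chosen on it, follow. The first was on chromosome 6 at 63412854 to 63414411, whose signal value was 23.0 in SG-A, against 2042 in pacSC and 1682 in rST, with a −log10 q of 5.39 in rST. On chromosome 1, the region at 63676350 to 63677480 had 111 (SG-A), 948 (pacSC) and 1085 (rST). On chromosome 4, the region at 73875780 to 73876324 had 122 (SG-A), 974 (pacSC) and 1030 (rST). On chromosome 8, the region at 99951964 to 99953112 had 79.1, 1946 and 647, and on chromosome 11, the region at 91438336 to 91439172 had 76.4, 873 and 586, in the same order of stages. None of these 5 lay in the distal 10 Mb, and the one on chromosome 8 lay 85 bp from a PriSG-A peak.

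The rule left out any overlap with a PriSG-A peak, so only the size of the gap to such peaks is described. A comparison with scattered positions was not made. The median gap to the nearest PriSG-A peak was 13776 bp (quartiles 3207 and 34296). It was 24786 bp for pacSC regions in neither spermatogonial list and 6926 bp for SG-A regions in neither other list. Within 1 kb of a PriSG-A peak lay 334, or 18.3% (16.6 to 20.1), against 8.50% (8.06 to 8.96) and 27.1% (26.7 to 27.5) for those 2 sets. Of the PriSG-A regions beside these 334, 137 were listed in PriSG-A, SG-A and pacSC without rST, and a further 26 in all 4 lists. Another 78 were listed in PriSG-A alone. The same split over all PriSG-A regions is not given here, so nothing is read from these counts. Among the 334, 3 passed a −log10 q of 5 in pacSC, or 0.898% (0.306 to 2.61), against 86 of 1494 farther away, or 5.76% (4.68 to 7.05). A wide peak so near a PriSG-A peak has more chance to overlap it and be left out by the rule. The part of the rule in this difference was not tested. In SG-A the shares were 3.89% (2.29 to 6.54) and 4.35% (3.43 to 5.51), with overlapping intervals. The median gap to a region listed at all 4 stages was 238542 bp.

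**Figure D5:**
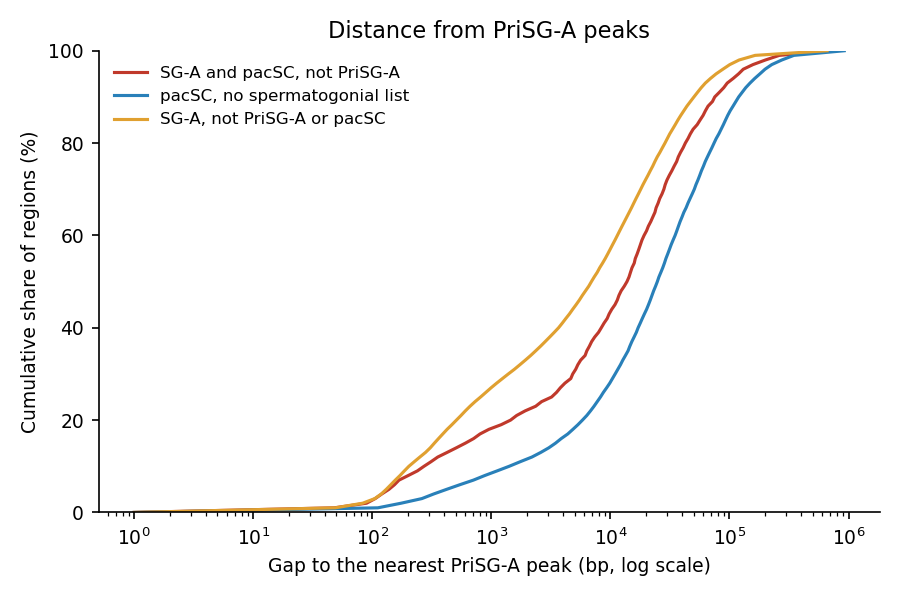
Cumulative share of regions (y axis) against the gap in bp to the nearest PriSG-A peak (x axis, log scale) for the 1828 regions (red), pacSC regions in neither spermatogonial list (blue) and SG-A regions in neither other list (orange). The red curve runs between the others, with medians of 13776, 24786 and 6926 bp.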

How the data were processed

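The data were 4 deposited ATAC-seq peak lists. Per the labels, all 3 PriSG-A, 3 SG-A, 2 pacSC and 2 rST libraries of a stage share 1 list. The PriSG-A list, whose deposited name is garbled, was assigned by its label and by exclusion. The other 20 samples of the series were not analysed here. The submitters' processing notes list Bowtie2 2.2.5, Bowtie, SAMtools and mm10 but assign them no step. No source used here states the peak caller, how replicates were pooled or whether reads were shifted for Tn5. The deposited values per peak are the authors' signal value, a score equal to 1000 times signal over width with a cap at 1000 (within 1 for every peak), the −log10 of the q-value, and the offset of the summit in bp. The signal value was at least 20.0 in each list. Where a region held several peaks of a list, the one of highest signal value was used.

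Peaks on chromosomes 1 to 19 were merged at 1 bp of overlap in Python 3.11.15 with pandas 2.3.3, tested on simulated lists with planted regions. Distal zones end at the last listed base of a chromosome, and a region's midpoint placed it. Shares have 95% Wilson intervals (scipy 1.17.1), and density ratios Poisson intervals on the log scale. Neighbouring regions are not independent. The members, sets and classes were chosen with earlier results of these data known. Named regions are the 10 of highest SG-A and of highest pacSC signal value, the 5 of highest rST signal value, those past a −log10 q of 5 in both lists (up to 5), the 5 fullest 1 Mb windows and the 3 nearest each edge of the rule. Alternatives were a reciprocal overlap of 50%, a −log10 q of at least 5, a gap of 1000 bp to PriSG-A, equal list lengths, 1 peak of each list, dense windows left out, 100 kb windows counted once, other zones, and X and Y added. The share in rST outside the distal zone was added after seeing the data.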

Additional observations from a re-analysis of the deposited data

Results flagged for a closer look

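On X and Y, which the comparisons above leave out, 31 regions met the same listing rule, 28 on X and 3 on Y, which is a signal outside the data compared. X carried 0.171 such regions per Mb, against 0.757 on autosomes. Of SG-A regions on X without a PriSG-A peak, 2.93% (95% Wilson interval 2.04 to 4.20) were listed in pacSC, against 3.45% on autosomes. Of pacSC regions on X without a PriSG-A peak, 28 of 147 were listed in SG-A (13.5% to 26.2%), against 11.1% on autosomes. None of the 31 was listed in rST, which allows a share of up to 9.68% (3 counts of 31). That range includes the 5.47% of the 1828 autosomal regions, so no difference is read from it. X and Y regions were not matched for strength.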

How the results depend on the processing

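Among 31 values recomputed under alternatives, 16 moved beyond the 95% interval of the reported value, or for counts by over 1.5 times, and 15 did not. This tally does not measure robustness, because some settings fix a move in advance. A cut at a −log10 q of 5 does so for the median −log10 q, and another zone size does so for the distal share. The 1828 regions became 736 with a reciprocal overlap of 50%, 985 with the SG-A and PriSG-A lists as long as the pacSC list, and 2 when the SG-A and pacSC peaks both had to reach a −log10 q of 5. With those 2, the distal share was 100%, the share in rST 0%, the share within 10 kb of a PriSG-A peak 0% (43.6% in the main result), the median pacSC −log10 q 6.10 and the median summit distance 262.5 bp, and no correlation could be computed. The distal share of 32.5% was 29.2% with the reciprocal overlap, 29.7% with lists of equal length, 27.8% without the 9 windows of 10 or more regions and 28.0% with each 100 kb window counted once. It was 21.9% for a distal zone of 5 Mb and 42.7% for 20 Mb. Without regions under 1000 bp from a PriSG-A peak, the share within 10 kb of one was 31.0%, since the setting removes near regions. The share in rST moved to 7.37% outside the distal 10 Mb. Other causes were not tested. No paired analysis was possible because the libraries of a stage share a single list, which also meant that no replicate could be left out. Unknown depth limits every statement on listing.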
